A study of Dugesia japonica with 4 samples.

Results

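A set of 27 gene models of the planarian Dugesia japonica was described, chosen because their RNA leaned towards one side of the tissue sections without leaning strongly towards the inside or the rim. They are 27 of 38792 features in the deposited lists and of 2684 that passed the level filter. That filter asked for a DJKW identifier, a molecule in at least 20% of all spots, a mean of at least 50 CPM over the wells, and a level in well A above 25% of that in the lowest other well (each with 1 CPM added). CPM scale the molecules of a gene to a common total for the spots concerned. Of the 2684, 128 (4.77%) had a right over left log2 ratio above 0 in 4 of 4 wells with a mean of at least 0.7, and 27 of those had a mean interior over edge log2 ratio between -1 and 1. The mirrored rule on the left side holds for 6.78%. Of the other 101, all had a mean interior over edge ratio above 1. The members were thus chosen by their measured right over left and interior over edge ratios, which are given below as a description, with no test.

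The study examined spatial gene expression in the head blastema of wild-type (WT) animals at 5 dpa. Fresh frozen animals were cut from anterior to posterior into 8 µm slices, stained, and placed on 10x Visium arrays, whose spots capture polyadenylated RNA with unique molecular identifiers (UMIs) that count single RNA molecules. All 4 libraries, wells A to D, form 1 group with the same genotype, tissue and time, so no treated or mutant group exists and every comparison is between places within sections. The labels name no animal for any well, so the spread between wells may be technical or may be between animals.

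A planarian is a flatworm that rebuilds a lost head from a blastema, a bud of new tissue fed by dividing stem cells. In a slice across such an animal the epidermis lies at the rim with muscle beneath it, while gut, nervous tissue and parenchyma lie inside, and the dorsal and ventral faces carry different cells and signals. The right side here means higher array columns than the mean of the section. The labels do not tie that side to a side or a face of the animal. The files give each gene model as an identifier only, so no function can be given to any member, and a spot holds several cells.

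The 4 libraries held 1216 spots on tissue, from 180 in well A to 433 in well D, and 1499569, 2190105, 4395756 and 3752977 UMIs in wells A to D. Each well had 12 sections, a section being at least 5 connected spots. Between 83 and 209 spots per well lay right of the mean column and between 84 and 212 left of it. The median spot carried 7934 to 9913 UMIs on the right and 7672 to 11912 on the left. A spot counted as interior where each of its 6 neighbours lay on tissue, and as edge otherwise. Interior spots made up 19.0%, 21.7%, 38.5% and 34.9% of the right side of wells A to D, against 7.14%, 12.9%, 33.0% and 32.1% of the left side. Well A had the fewest spots and UMIs in total, but its median spot carried more UMIs than that of well D on either side. Well A stood apart in the strength of the lean.

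The members were mostly genes of moderate level. Their mean over the wells ran from 51.3 to 1143 CPM with a median of 113, where 12 members were under 100 CPM and 4 above 500. Summed, they took 0.283%, 0.506%, 0.702% and 0.808% of the UMIs of wells A to D. Well A was the lowest well for 23 of the 27 and the highest for none. In a bulk measure such as a spot, fewer cells of a type and less RNA per cell cannot be told apart.

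The right over left log2 ratio averaged over the wells ran from 0.70 to 1.57 among the members, with a median of 0.84, against a median of -0.23 over the 2684 features. Well A supplied the highest ratio for 25 of the 27 members. The median member stood at 1.64, 0.69, 0.46 and 0.59 in wells A to D. In well A all 27 reached 0.7, but 13, 4 and 11 did so in wells B, C and D. Of the 2684 features, 10.3%, 4.55%, 1.12% and 2.57% did so in wells A to D. The rule fixes the sign of these ratios, so their common direction carries no information. Over wells B, C and D alone the median was 0.58, and 8 of the 27 kept a mean of at least 0.7.

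**Figure D1:**
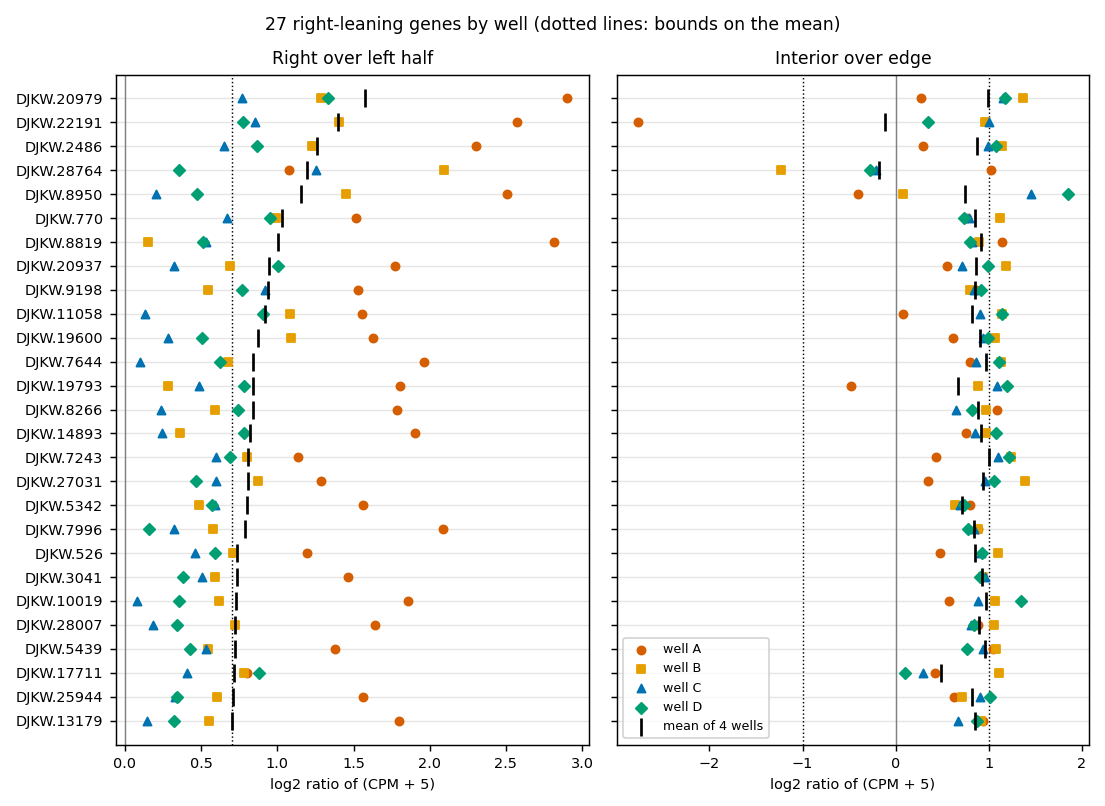
Log2 ratios of the 27 members in each well, right over left side (left panel) and interior over edge (right panel), on CPM with 5 CPM added. Coloured points are wells, black bars are means of 4 wells and dotted lines are the bounds of the rule. Well A gives the highest right over left ratio for 25 members, and most interior over edge means lie close to the upper bound of 1.

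The steepest lean belonged to DJKW.20979. It had 84.6, 195, 545 and 951 CPM on the right in wells A, B, C and D, against 7.0, 77.1, 318 and 374 CPM on the left. The right exceeded the left within each well, while the level itself differed 14.7-fold between wells A and D, so the sides overlap when wells are pooled. Its mean log2 ratio was 1.57 ± 0.92 (SD, n = 4), a 2.97-fold difference. The value of well A rests on 63 right and 5 left UMIs, a right share of 92.6% (exact binomial 95% interval 83.7% to 97.6%, counting error only). In well D it rests on 1809 and 686 UMIs, a share of 72.5% (70.7% to 74.2%).

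DJKW.2486 followed the same course at a lower level. It had 40.3, 112, 237 and 427 CPM on the right in wells A to D, against 4.2, 45.2, 149 and 232 CPM on the left, with a mean log2 ratio of 1.26 ± 0.73 (SD, n = 4). In well A it was counted 30 times on the right and 3 times on the left. It also had one of the widest ranges between wells, 22.0 CPM in well A and 330 in well D.

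DJKW.22191 was among the most abundant members and one of 2 that reached a log2 ratio of 0.7 in every well. It had 914, 1111, 805 and 575 CPM on the right in wells A to D, against 149, 416, 444 and 334 CPM on the left, so that the sides did not overlap even across wells. The mean log2 ratio was 1.40 ± 0.83 (SD, n = 4). A single spot held 26.4% of its right-side UMIs in well A. Without the spot with the most UMIs in each well the mean was 1.28.

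DJKW.28764 leaned most in well B, not in well A. It had 79.2, 323, 133 and 51.5 CPM on the right in wells A to D, against 34.9, 71.8, 53.0 and 39.2 CPM on the left. The mean log2 ratio was 1.19 ± 0.71 (SD, n = 4), from 0.35 in well D to 2.09 in well B. In well D the right share of 57.6% had a 95% interval of 49.8% to 65.2%, which reaches the 50.9% that the right side held of all UMIs of both sides there.

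DJKW.8950 had 55.04, 30.5, 318 and 288 CPM on the right in wells A to D, against 5.6, 8.0, 275 and 207 CPM on the left. Its lean was large where it was scarce and small where it was abundant, with log2 ratios of 2.50, 1.45, 0.20 and 0.47 in wells A to D. Single spots held 20.6% to 28.6% of its right-side UMIs in every well, and without the top spot the mean ratio moved to 0.80, above 0 in 3 of 4 wells. Over wells B, C and D its mean was 0.71, against 1.16 ± 1.05 over all 4. Its level ranged 17-fold, the widest of the 27, from 17.4 CPM in well B to 295 in well C.

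DJKW.770 was the most abundant member and had the most even lean among the leading 8. It had 525, 981, 1921 and 2605 CPM on the right in wells A to D, against 180, 490, 1206 and 1346 CPM on the left. The mean log2 ratio was 1.03 ± 0.35 (SD, n = 4) and no well was under 0.67. DJKW.3041, next in abundance, had 775, 1142, 1182 and 951 CPM on the right against 278, 756, 831 and 729 CPM on the left, with a mean of 0.74 ± 0.49. DJKW.17711 had 140, 461, 819 and 1442 CPM on the right against 78.2, 266, 615 and 783 CPM on the left, and its ratios of 0.41 to 0.88 gave the smallest spread of those described here, 0.72 ± 0.21.

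The other members of the leading 8 were scarcer. DJKW.8819 had 79.2, 65.4, 107 and 89.4 CPM on the right in wells A to D, against 7.0, 58.5, 72.2 and 61.0 CPM on the left. Its mean ratio of 1.002 rests on well A, since wells B, C and D averaged 0.40. DJKW.20937 had 55.04, 87.2, 109 and 153 CPM on the right against 12.6, 52.3, 86.7 and 74.1 CPM on the left, a mean of 0.95 ± 0.62. The most even member in level, DJKW.8266, ranged from 104 CPM in well A to 123 in well D and had a mean ratio of 0.84 ± 0.66, or 0.52 over wells B, C and D. The remaining members had mean ratios from 0.70 to 0.94, and without well A the 27 ran from 0.34 to 1.23.

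The bounds of the rule cut through a dense group of genes. DJKW.13179 was the last member inside the bound of 0.7 at 0.703, and DJKW.9462 fell just outside it at 0.699. DJKW.7243 was the last inside the upper interior bound at 0.996 and DJKW.7988 the first outside it at 1.01. DJKW.10019 had the lowest single-well ratio of a member, 0.08 in well C. DJKW.2486 passed the well A condition with 0.280 of the lowest other well and DJKW.5895 failed it with 0.219.

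The working description of these genes as even across rim and interior was not borne out by their values. The median interior over edge log2 ratio of the members was 0.86, against -0.29 over the 2684 features. Of the 27, 23 lay above 0.7, 3 within 0.5 of 0 and 2 below 0, and 22 exceeded 1 in at least 1 well. They are therefore called right-leaning genes here. Across the 2684 features both ratios tended to be high together (Pearson r = 0.812 across features, which share spots and libraries and are not replicates). Most members sit where that cloud crosses the bound at 1, directly below the 101 right-leaning genes with a higher interior ratio, whose medians were 1.15 for right over left and 1.42 for interior over edge.

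**Figure D2:**
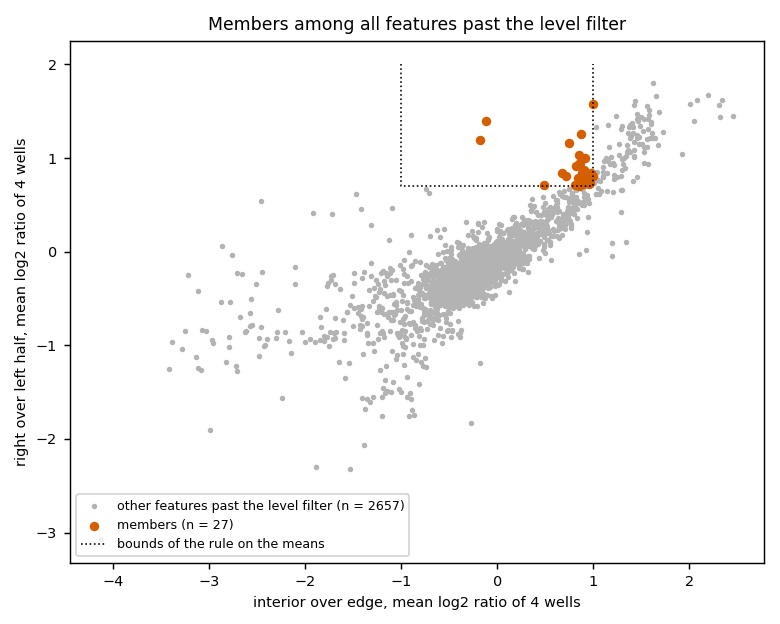
Mean right over left log2 ratio against mean interior over edge log2 ratio for the 2684 features past the level filter, with the 27 members in orange and the bounds of the rule dotted. Most members lie in the corner next to the interior bound of 1, and 2 members, DJKW.22191 and DJKW.28764, lie near 0.

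DJKW.3041 was typical in its mean ratio but not in its spread. It had 869, 1503, 1387 and 1140 CPM in interior spots of wells A to D, against 460, 781, 710 and 607 CPM in edge spots. Its interior over edge log2 ratio was 0.93 ± 0.03 (SD, n = 4), and interior and edge did not overlap. DJKW.20979 and DJKW.7243 had the highest means, 0.993 and 0.996, and each exceeded 1 in wells B, C and D.

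DJKW.22191 and DJKW.28764 averaged near 0 with wells of opposite sign. DJKW.22191 had 85.5, 1112, 863 and 519 CPM in interior spots of wells A to D, against 611, 570, 428 and 406 CPM in edge spots. In well A, where the interior is 23 spots, it was lower inside (log2 ratio -2.77), and in wells B, C and D it was higher inside, with a mean of 0.77. DJKW.28764 had 104, 83.6, 82.2 and 39.9 CPM in interior spots, against 48.5, 204, 95.7 and 49.5 CPM in edge spots, with log2 ratios of 1.02 in well A and -1.23 to -0.21 in the others. DJKW.8950 behaved in the same mixed way, at -0.40 in well A and 1.85 in well D. In all, 5 of the 27 stayed between -1 and 1 in every well.

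Since interior spots took a larger share of the right side than of the left in each well, the lean was also read within each zone. Among edge spots alone the right over left ratios of the members had a median of 0.79 (0.48 to 1.604), and 23 of 27 were above 0 in 4 of 4 wells. Among interior spots the median was 0.76 (0.12 to 1.497), and 13 of 27 were above 0 in 4 of 4 wells. These ratios reuse the counts on which the rule chose the members, so their direction was largely built in. They are a description, and no share over other features was taken. Both medians rest on well A. Over wells B, C and D alone they were 0.49 for edge spots and 0.34 for interior spots, against 0.58 for all spots of both sides. The interior values of well A rest on 16 right and 6 left spots.

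Summed over the members, the level was 9097 ± 3433 CPM in right interior spots, 6084 ± 1423 in right edge spots, 6137 ± 3140 in left interior spots and 3380 ± 1568 in left edge spots (SD, n = 4). The wells themselves differed widely in these sums. By the mean over wells, 25 of the 27 members were highest in the right interior and 26 were lowest at the left edge. These places largely follow from the right over left bound of the rule and the interior over edge ratios given above. No share over other features was taken. DJKW.28764 was highest at the right edge (182 ± 173 CPM) and lowest in the left interior (48.2 ± 7.22 CPM). DJKW.8950 was highest in the left interior (244 ± 267 CPM), with 223 ± 229 CPM in the right interior, a difference far within its spread.

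The position across the width was then followed in 5 equal bins from the left to the right limit of each section. Relative to its own mean over section spots, the median member stood at 0.394 ± 0.0519 in the leftmost bin, 0.798 ± 0.216 left of the centre, 1.28 ± 0.192 in the central bin, 1.31 ± 0.242 right of the centre and 0.956 ± 0.465 in the rightmost (SD, n = 4). All 27 members had their lowest mean in the leftmost bin. The rule chose them for lower levels on the left, so a low leftmost bin was largely built in. The profile is a description, and it was not set beside that of other features. By the mean over wells, the peak lay in the central bin for 19 members, in the bin right of it for 6 and in the rightmost for 2. Most of these genes were therefore low on the left rim and highest at or just right of the centre, and not highest at the right limit.

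**Figure D3:**
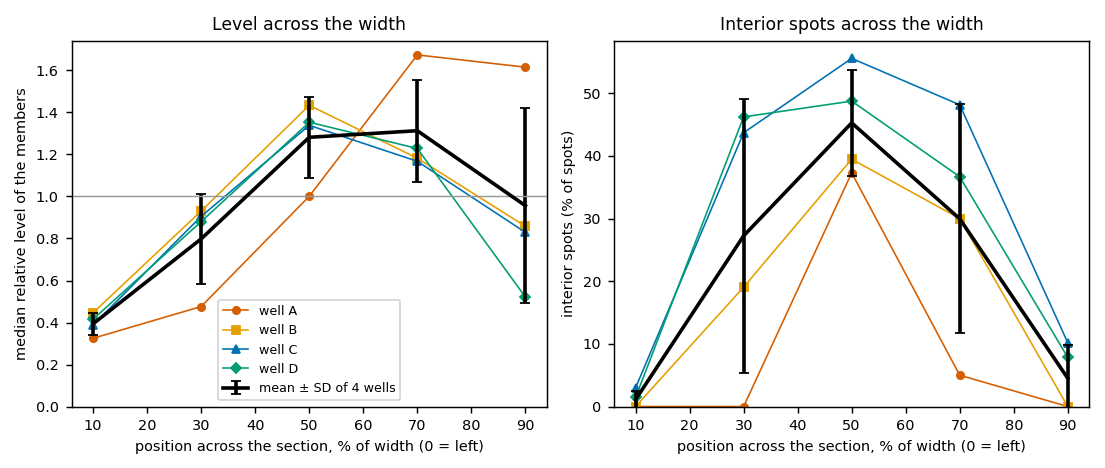
Median level of the 27 members relative to their own mean over section spots (left panel) and share of interior spots (right panel), by position across the section in 5 bins from left to right. Coloured lines are wells and the black line is the mean ± SD of 4 wells. Wells B, C and D peak in the central bin at 1.34 to 1.43, while well A reaches 1.67 in the bin right of it.

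Well A differed in its profile. The median member reached 1.67 right of the centre and 1.62 in its rightmost bin, while wells B, C and D peaked in the central bin at 1.34 to 1.43 and stood at 0.522 to 0.858 in the rightmost. The share of interior spots, given beside the levels, averaged 1.11%, 27.2%, 45.3%, 30.0% and 4.50% from left to right. The leftmost and rightmost bins thus hold almost only edge spots, with the members lower in the leftmost. What part of the profile goes with the interior share was not tested.

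By the mean over wells, DJKW.22191 and DJKW.28764 were the 2 members that peaked at the right limit. DJKW.28764 was highest there in each well, but DJKW.22191 only in well A, at 2192 CPM. In wells B and C DJKW.22191 peaked in the bin right of the centre, at 1537 and 844 CPM. In well D it peaked in the central bin at 746 CPM and was lowest in the rightmost, at 83.0 CPM. DJKW.22191 averaged 257 ± 74.5, 371 ± 177, 525 ± 322, 871 ± 475 and 1015 ± 945 CPM from left to right. DJKW.28764 averaged 48.4 ± 17.0, 50.3 ± 12.7, 92.1 ± 73.5, 110 ± 68.2 and 245 ± 238 CPM (SD, n = 4). In both the spread between wells grew to the size of the level itself in the last bin. DJKW.770 shows the common shape, with 359 ± 179, 866 ± 601, 1656 ± 1097, 1620 ± 1246 and 779 ± 185 CPM.

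**Figure D4:**
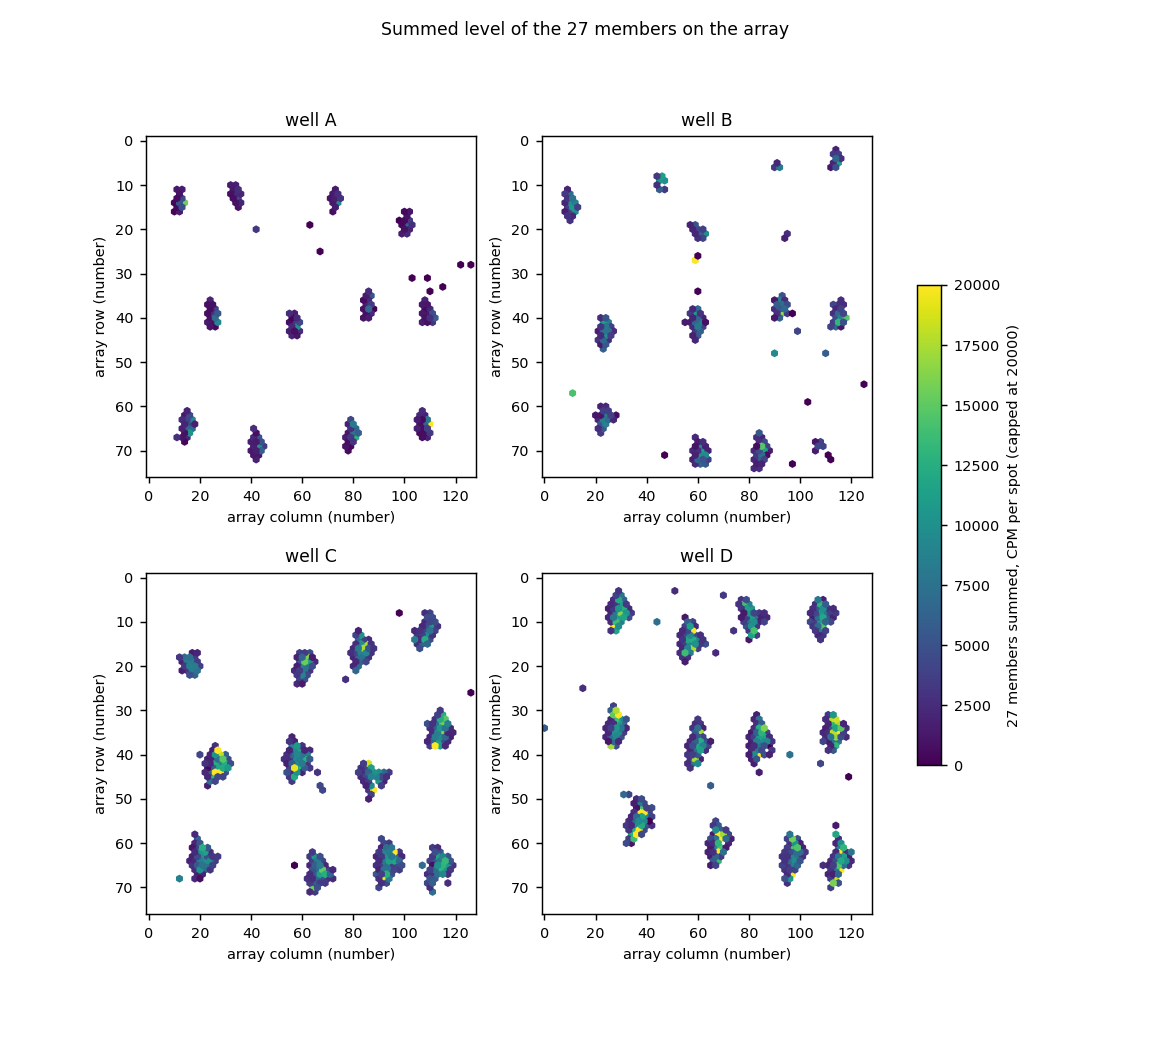
Summed level of the 27 members in each spot on the 4 arrays, as CPM per spot capped at 20000, by array column and row. Bright spots lie in the middle and right parts of the sections, and well A is darker than the other wells, with a median section spot of 1791 CPM against 3656, 4607 and 4419 CPM in wells B, C and D.

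The lean was spread over sections. For the summed members the right side was higher in 46 of 48 sections, with 12 of 12 in wells A and B and 11 of 12 in wells C and D. The rule chose the members on these same counts summed per well, so a right excess in most sections was largely built in. The counts are a description, and no share over other features was taken. The log2 ratios of single sections spanned 0.80 to 3.49 (well A), 0.28 to 1.86 (well B), -0.02 to 0.89 (well C) and -0.05 to 1.83 (well D). Per member, counting sections with at least 5 UMIs of it, the right side was higher in 63.2% to 93.8% of them, with a median of 81.0%. The most constant was DJKW.3041, higher on the right in 45 of 48 sections, and DJKW.770 was so in 44 of 48. DJKW.7644 had the lowest share, 24 of 38. Sections of 1 well share their library and may come from 1 animal, so they are not independent replicates.

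The members co-varied across the 1163 section spots. Values were log1p of counts scaled to the median spot and centred within wells. The median Pearson r over the 351 pairs of members was 0.256, against 0.0328 over all pairs of the 2684 features. The points share libraries, depth and position, and the rule itself selects genes of like placement. Within right-side spots alone the median was 0.248. The closest pair was DJKW.20979 with DJKW.2486 (r = 0.666), and DJKW.770 correlated with them at 0.658 and 0.631. DJKW.28764 stood outside this group, with a median r of -0.0286 with the other members, as did DJKW.22191 (0.0566) and DJKW.8950 (0.0864).

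The position along the length of the sections was not itself used to choose the genes, but it moves with both positions that were. Right-side spots made up 47.0%, 39.3%, 36.0% and 39.8% of the ends of wells A to D, against 52.9%, 54.3%, 52.9% and 56.7% of the middle. Interior spots made up 4.71% to 15.2% of the ends, against 22.1% to 50.2% of the middle. The choice of the genes and their ends over middle values are therefore not independent, and the members' common direction there is given as a description. What part of it goes with side or interior share was not tested. Ends were the outer 25% of the length at either limit along the array rows, and the middle was the rest. Counts summed per well and place were fitted with edgeR over all 9255 features that passed its filter, with the well as a block, and features were called where the p adjusted by Benjamini-Hochberg was below 0.05. Here CPM carry edgeR's TMM scaling.

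Of the 27 members, all of which were tested, 11 fell at the ends and none rose, against 1.72% of all tested features lower and 2.36% higher. Among the 2684 features past the level filter, to which the members belong, 3.95% were lower and 3.09% higher. No member rose with DESeq2 either, and 1 member was higher by edgeR at an unadjusted p under 0.05. The median log2 fold change was -0.56 over the members, -0.04 over the features past the level filter and -0.01 over all tested. The 101 right-leaning genes with a higher interior ratio had 36 lower and a median of -0.81. Of the 27, 26 were below 0. Among right-side spots alone, 3 members were lower, none was higher, and the median was -0.67. Of all 6889 features tested there, 55 were lower and 78 higher. This holds the side fixed but not the share of interior spots.

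DJKW.8950 had the largest difference among the members. It had 10.3, 1.01, 133 and 216 CPM at the ends of wells A to D, against 41.6, 29.5, 463 and 335 CPM in the middle. DJKW.8950 was scarce in wells A and B, with 41 and 28 UMIs on the right and 4 and 9 on the left. Those counts cover ends and middle together, so its values in these wells rest on few molecules. The ends were lower in 4 of 4 wells, at -1.41 ± 0.28 on the log2 scale (SE, edgeR adjusted p = 0.0255). DJKW.28764 had 30.8, 117, 83.0 and 36.0 CPM at the ends, against 67.0, 219, 111 and 64.0 CPM in the middle. It was also lower in 4 of 4 wells, at -0.75 ± 0.12 on the log2 scale (edgeR adjusted p = 0.00959).

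DJKW.7644 had 16.0, 50.4, 66.2 and 63.0 CPM at the ends of wells A to D, against 25.4, 93.3, 99.1 and 95.0 CPM in the middle, a difference of -0.66 ± 0.11 on the log2 scale (edgeR adjusted p = 0.00933). DJKW.27031 fell by 0.69 and DJKW.11058 by 0.73 on the log2 scale (edgeR adjusted p = 0.0208 and 0.0319). All 11 called members were lower in 4 of 4 wells, with log2 fold changes of -0.41 to -1.41. The count depends on the libraries and the tool. Without well B no member was called lower, and without wells C, D and A in turn 3, 10 and 15 were. DESeq2 called 4, and edgeR without the well as a block called 0. Over all features, 44, 35, 150 and 282 were lower without wells B, C, D and A, and 64 with DESeq2. Those settings tested 8510 to 9372 features each. Over all tested features 57.8% of calls were higher at the ends, and 72.6% with library totals in place of TMM.

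Among edge spots alone the pattern did not hold. There 1 member was lower and 2 were higher at the ends, of 8331 features tested, against 0.408% of all features lower and 0.684% higher. The median log2 fold change of the members was 0.06, and 18 of 27 lay above 0. These values pool wells of opposite direction. Most members were still lower at the ends in well A, and most were higher there in wells C and D. DJKW.770 shows this, with log2 ratios of -1.02, 0.088, 0.70 and 0.61 in wells A to D. The 3 members called among edge spots are named after their values were seen.

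DJKW.28764 stayed lower at the ends among edge spots. It had 32.7, 128, 86.7 and 43.3 CPM at the ends of wells A to D, against 58.8, 293, 123 and 70.0 CPM in the middle, lower in 4 of 4 wells (log2 fold change -0.83 ± 0.14, edgeR adjusted p = 0.0384). Its log2 fold change among all section spots, -0.75, was of like size. DJKW.8950 had a log2 fold change of -1.22 ± 0.29 among edge spots and missed the threshold (edgeR adjusted p = 0.129).

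DJKW.17711 and DJKW.14893 were higher at the ends among edge spots. DJKW.17711 had 101, 347, 955 and 1632 CPM at the ends of wells A to D, against 85.8, 201, 363 and 673 CPM in the middle, higher in 4 of 4 wells (log2 fold change 0.99 ± 0.18, edgeR adjusted p = 0.0440). The difference was small in well A and largest in wells C and D. DJKW.14893 had 35.3, 83.2, 156 and 193 CPM at the ends, against 28.6, 59.8, 85.2 and 114 CPM in the middle (0.68 ± 0.12, edgeR adjusted p = 0.0480). Among all section spots DJKW.17711 was at 0.38 and DJKW.14893 at -0.28, and neither was called (edgeR adjusted p = 0.160 and 0.148).

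**Figure D5:**
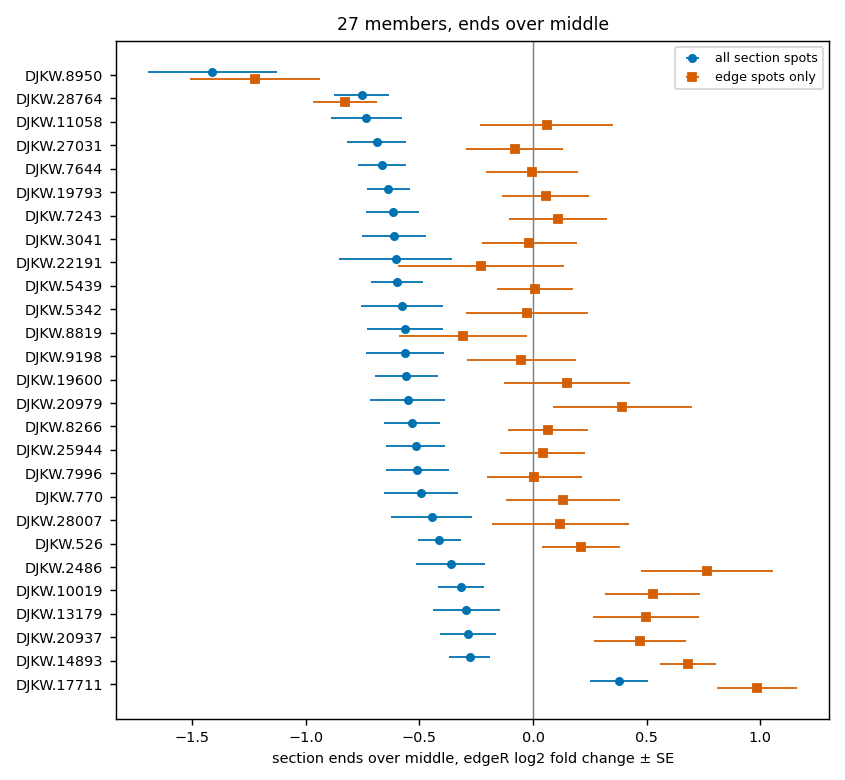
Section ends over middle, edgeR log2 fold change ± SE, for the 27 members, from all section spots (blue circles) and from edge spots only (orange squares). With all spots 26 of 27 members lie below 0. With edge spots only 18 of 27 lie above 0 and 9 below, with DJKW.8950 and DJKW.28764 the furthest below.

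The last comparison asked whether the members also leaned along the length, from higher to lower array rows. Right-side spots made up 50.6%, 45.9%, 41.2% and 43.5% of the high-row side of wells A to D, against 49.4%, 48.4%, 50% and 56.3% of the low-row side. On either side of the mean row of each section, none of the 27 members was called higher or lower by edgeR on the high-row side. None of all 9378 features tested (0% higher and 0% lower) was called either, while 187 features were higher and 231 lower at an unadjusted p under 0.05. DESeq2 called no feature. The members had a median log2 fold change of 0.04, from -0.36 to 0.16, and 3 were lower at an unadjusted p under 0.05. The largest was DJKW.28764, with -0.36 ± 0.09 (edgeR adjusted p = 0.595) and lower on the high-row side in 4 of 4 wells. No lean along the length was therefore detected, which does not show that there is none.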

How the data were processed

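Each deposited matrix gives unnormalised UMI counts, and Space Ranger 2.0.1 wrote it, per the file headers. Seurat is also named in the submitters' processing notes, for a step they do not state. Build, annotation and aligner: not given in the sources used here. All 4 wells were used, as 1 group of 4 libraries, and no 2 of them agreed within sampling noise (lowest chi-square per degree of freedom 10.4). Wells shared 19 to 112 barcodes per pair, since Visium barcodes mark array positions and not cells.

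Sections, sides and zones were set from array positions alone. Spots on the mean column, and spots outside sections, were left out of sides. Log2 ratios used CPM with a pseudocount of 5. Places were compared by the quasi-likelihood test of edgeR 4.0.16 (R 4.3.3) after filterByExpr and TMM scaling, with the well as a block because both places lie on the same sections. Each SE is the absolute log2 fold change divided by the root of its F statistic. P-values measure only the spread among these 4 libraries. The test was also run on simulated data, and its outcome there is not given here. Alternatives were DESeq2 1.42.0 and those in the closing section. Python 3.11.15 was used elsewhere. Depth was 1499569 to 4395756 UMIs per well, and intervals cover counting error only.

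The members and lists were chosen with earlier results of these data known. Members described singly were the 8 with the largest lean, the 4 most abundant, the 2 highest and 2 lowest in interior over edge, the 2 widest and 1 narrowest in range between wells, the 5 largest called along the length, the closest pair and those next to a bound. None of 29 marker gene names looked up occurs among the features, so cell types and RNA quality were not followed, and no sequence was used here.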

Additional observations from a re-analysis of the deposited data

Results flagged for a closer look

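Among 71 sets of 4 well values of the members described singly, 5 held a well far from the other 3. Well A was the one in 3 of the 5. Chance gives about 3.55 where sets are independent, but these sets all share the same 4 wells. The rule also chose the members on their levels, right over left ratios and interior over edge ratios in these wells. The 5 can therefore not be weighed against 3.55 and are given as a description. DJKW.8819 had a right over left log2 ratio of 2.81 in well A, against 0.15 to 0.53 in the others. DJKW.7644 stood at 24.0 CPM in well A, against 70.9 to 77.6 CPM. DJKW.2486 had an ends over middle log2 ratio of -1.43 in well A, against -0.31 to -0.17. In well B, DJKW.770 had an interior over edge log2 ratio of 1.12, against 0.74 to 0.79, and DJKW.7644 an ends over middle log2 ratio of -0.83, against -0.56 to -0.54.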

How the results depend on the processing

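Which genes meet the rule depends on the settings. Sides set by the median column gave 49 members (all 27 shared), the mean of CPM over spots gave 9 (8 shared), and TMM library sizes gave 38 (6 shared), where the median interior over edge ratio of the 27 was 1.10. Leaving out each well gave 22 to 45, and without well A only 4 were shared. Sides by the minor axis, chosen after seeing the data, gave 28 (23 shared). The median right over left ratio lay between 0.58 and 1.07 in these settings and, leaving out each well (chosen after seeing the data), between 0.34 and 0.85 within interior spots and 0.49 and 0.88 within edge spots.

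For section ends over middle, features higher and lower were 124 and 64 with DESeq2 and 289 and 109 with library totals, each of 9255 tested. With no low-count filter they were 418 and 544 of 18632, and with no replicate block 8 and 0 of 8268. They were 57 and 34 of 8331 with edge spots only, and 78 and 55 of 6889 with the right side only. Outer 20% ends gave 319 lower, and leaving out each well gave 90 to 239 higher and 35 to 282 lower. Members lower were 4 with DESeq2, 7 with library totals, 23 with no filter, 0 without the block, 1 with edge spots only and 3 with the right side only. Leaving out each well gave 0 to 15. Members higher were 1 with no filter, 2 with edge spots only, and 0 to 1 leaving out each well.

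With edge spots only the sign turned for 17 of the 27 members. Among those described singly by rule they were DJKW.20979 (0.39), DJKW.2486 (0.77), DJKW.770 (0.13), DJKW.20937 (0.47), DJKW.7243 (0.11), DJKW.8266 (0.066), DJKW.13179 (0.50), DJKW.10019 (0.53) and DJKW.11058 (0.061). The cause was not tested.

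For the high-row over the low-row side, features higher were 1 with library totals, 18 with no filter, 1 with sections of at least 10 spots and 1 to 4 leaving out each well. Features lower were 45 with no filter and 1 to 8 leaving out each well. No member was called in any setting run. With edge spots only 9 of the 27 members turned sign. Among the members described singly by rule, uncalled values turned as follows. DJKW.20979 was at -0.018 with DESeq2, -0.0076 with no replicate block and -0.037 with edge spots only. DJKW.8819 was at 0.056 with DESeq2, 0.024 with totals, 0.021 with no block, 0.081 with edge spots, 0.040 with the right side and 0.049 with sections of at least 10 spots. Edge spots gave -0.013 for DJKW.3041, -0.0097 for DJKW.8266, -0.013 for DJKW.11058 and -0.041 for DJKW.7644. Leaving out each well gave -0.064 to 0.048 for DJKW.20979, -0.049 to 0.14 for DJKW.2486, -0.57 to 0.18 for DJKW.8950, -0.094 to 0.18 for DJKW.8819, -0.045 to 0.079 for DJKW.3041, -0.028 to 0.21 for DJKW.8266, -0.042 to 0.18 for DJKW.11058 and -0.018 to 0.17 for DJKW.27031.

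Depth limits well A most, where a member had as few as 33 UMIs on both sides together and 3 on the left.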
